A study of Saccharomyces cerevisiae with 23 samples.

Results

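The ribosomal DNA of budding yeast (Saccharomyces cerevisiae) was examined as a target of Ty1, a copia-type retrotransposon, in 2 insertion-profiling libraries. Members were all deposited intervals, and all distinct sites, on chromosome XII between 451 and 490 kb of the R64 build. An interval is the stretch of the genome to which 1 sequencing read was aligned, and a site is a distinct 5′ end of such an interval on a given strand. The stretch held 560 of 152129 nuclear sites in the galactose library, from 713 intervals, and 109 of 11208 nuclear sites in the dextrose library, from 109 intervals.

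Both libraries came from the haploid laboratory strain BY4741 (MATa, his3, leu2, ura3 and met15 deleted) carrying the plasmid pJEF2365. One culture was held for 24 h in 2% galactose, the inducing sugar, and the other for 24 h in 2% dextrose. Both had a preculture in 2% raffinose with 0.1% dextrose, and both were later grown in dextrose for 24 h and then with 1 mg/mL 5-FOA, which kills cells with a working URA3 gene. The labels name complete medium in one field and medium without uracil in another for the step with the test sugar. Each medium had 1 library, so no test between media was possible, no difference has a replicate check, and all 95% intervals cover counting error only. The series also holds 21 nucleosome-mapping samples, which were not analysed here.

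In yeast the ribosomal RNA genes form 1 long tandem array on chromosome XII. Each repeat carries a 35S precursor gene (RDN37), read by RNA polymerase I and cut into the 18S, 5.8S and 25S rRNAs, and a 5S gene (RDN5) on the opposite strand, read by RNA polymerase III. Spacers separate them: the one upstream of the 5S gene holds an origin of replication and faces the 35S promoter, and the one downstream of it holds the replication fork barrier bound by Fob1 and lies between the 3′ ends of the 5S and 35S genes. Ty1 is known to insert upstream of genes read by RNA polymerase III. The rDNA is also known for Sir2-dependent silencing of Ty1 elements and reporter genes placed in it.

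The reference sequence holds only part of this array. The annotation has 2 RDN37 genes, 6 RDN5 genes and 18 protein-coding genes among the 40 entries that touch the stretch. A read from any genomic copy of a repeat can be placed only where the reference shows its sequence clearly once, and every deposited interval had a mapping quality of at least 30 on a scale that reached 60. Counts given below can therefore add up many genomic copies at 1 reference place and can miss the places that the reference repeats. They are not levels per gene copy.

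Nearly all sites lay in 1 spacer. The 915 bp downstream of the 5S gene RDN5-1 (459797 to 460711), as far as the next 35S gene RDN37-2, held 538 sites in galactose (95% interval 493 to 585) and 108 in dextrose (95% interval 88.6 to 130). Over the whole stretch this was 96.1% of sites in galactose and 99.1% in dextrose. The 5S gene RDN5-1 itself (459676 to 459796) held 6 sites in galactose and 1 in dextrose.

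Of the 9 segments into which the stretch divides, 4 had 0 sites in both libraries. These were RDN37-1 (451575 to 458432), RDN37-2 (460712 to 467569), the spacer upstream of RDN5-1 (458433 to 459675) and the spacer upstream of RDN5-2 (467570 to 468812). Counting error alone would allow 3 sites in each of them, or 0.00197% of all galactose and 0.0268% of all dextrose sites. Both 35S genes and both upstream spacers are present as 2 copies in the annotation, with equal lengths of 6858 bp and of 1243 bp. Whether reads can be placed there was not tested, since no genome sequence was used here.

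**Figure D1:**
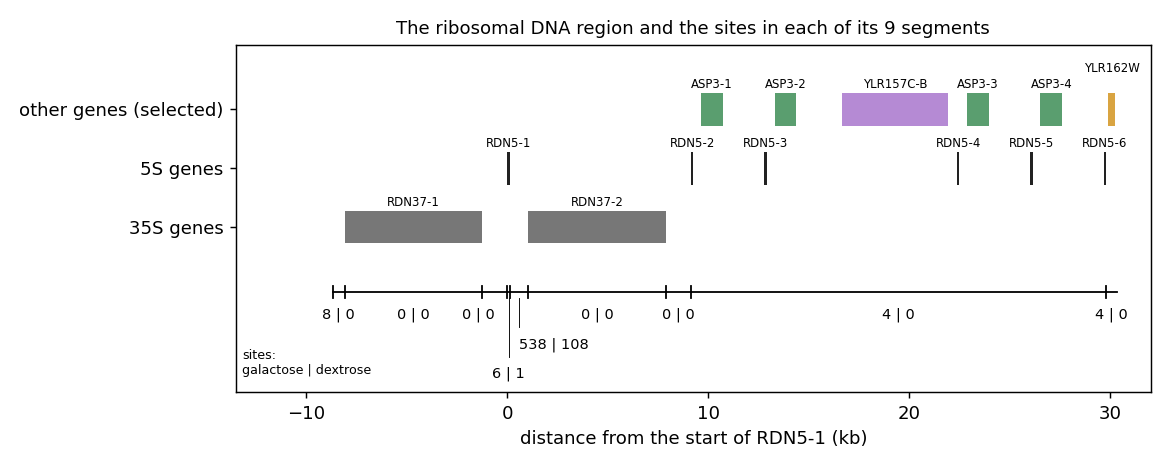
Genes of the stretch by distance from the start of RDN5-1 (kb), with the number of galactose and dextrose sites under each of 9 segments. The spacer downstream of RDN5-1 holds 538 galactose and 108 dextrose sites, while the 35S genes and the spacers upstream of RDN5-1 and RDN5-2 hold 0 in both libraries.

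The remaining sites were few. The flank to the left of RDN37-1, up to 451574, had 8 galactose sites, all between 451028 and 451268, and 0 dextrose sites. Its 7 sites on the minus strand and 1 on the plus strand all had a mapping quality of 60. To the right, YLR162W (489573 to 489929), a protein-coding gene, had 4 galactose sites, all on the minus strand, and 0 dextrose sites.

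Between RDN5-2 and RDN5-6 (468813 to 489469), a stretch of 20657 bp, only 4 galactose sites and 0 dextrose sites were found. RDN5-6 (489349 to 489469) held 2 of them, and its 3 intervals had mapping qualities of 38, 41 and 60. The other 2 lay 251 and 281 bp from the 5′ end of YLR157C-B (476333 to 481601), which encodes the Gag-Pol protein of a resident Ty1 element, with mapping qualities of 50 and 42. One of those 2 lay inside YLR157W-E (481873 to 482037). Whether these 2 intervals come from the resident element itself rather than from insertions beside it was not tested. The 4 ASP3 genes of this stretch, which encode a cell wall asparaginase, had 0 sites in the gene in both libraries. In all, 4 of the 40 annotated genes had a site in galactose and 1 in dextrose, namely RDN5-1, RDN5-6, YLR157W-E and YLR162W in galactose and RDN5-1 in dextrose.

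At the edges of the stretch, the 1 kb just outside the left end had 34 galactose sites and 1 dextrose site, and the first 1 kb inside it had 8 and 0. At the right end, the last 1 kb inside had 6 galactose sites and 0 dextrose sites, and the 1 kb outside had 8 and 0.

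The 5S genes had almost no sites on their upstream side, where Ty1 is known to insert at genes of RNA polymerase III. Of the 6 RDN5 genes, RDN5-4 (482045 to 482163) alone had galactose sites in its upstream 1 kb. Those were the 2 sites beside YLR157C-B (95% interval 0.242 to 7.22), and neither had a mapping quality of 60. In dextrose all 6 upstream windows held 0 sites. The spacers upstream of RDN5-1 and RDN5-2 have the same annotated length, 1243 bp. Counts can miss places that the reference repeats, and how far this empties the 6 windows was not tested. The low counts therefore do not show that insertions are absent upstream of the 5S genes.

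The sites counted in the 5S gene body lay in its middle and 3′ part. In galactose 9 intervals began inside RDN5-1, all on the plus strand, at 6 sites between 459727 and 459768. Each of them ran past the end of the gene, by 16 to 36 bases. The 3 that ended nearest to the gene, 16, 17 and 20 bases past it, had mapping qualities of 39, 41 and 48. The 4 that ended 30 to 36 bases past it after starting at 459731, 459736, 459751 and 459768 had a mapping quality of 60. The 1 dextrose interval began at 459735 and ended 34 bases past the gene, with a mapping quality of 60. No interval that lay wholly inside RDN5-1 was seen in either library. The annotation has 6 RDN5 genes, and whether reads wholly inside one can be placed was not tested. Every interval counted here reached past the gene, so where and on which strand insertions lay within it cannot be read from these counts.

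Within the spacer the sites were spread over most of its length. They began 32 bp from the 3′ end of RDN5-1 in galactose and 48 bp from it in dextrose, and the last lay at 840 bp in galactose and 747 bp in dextrose. The 75 bp next to RDN37-2 were reached by no interval in galactose, and the 80 bp next to it by none in dextrose. The median distance was 359 bp in galactose (quartiles 202 and 542) and 442.5 bp in dextrose (quartiles 308 and 558).

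Counted per 50 bp from the 3′ end of RDN5-1, the galactose sites were few in the first bin, with 9 sites at 1 to 50 bp. They reached 45 at 51 to 100 bp and 54 at 151 to 200 bp, the highest bin, with 25 at 101 to 150 bp between these. Farther on there were 37 sites at 201 to 250 bp, 41 at 251 to 300 bp, 49 at 301 to 350 bp and 45 at 351 to 400 bp. A gap followed at 401 to 450 bp, where 11 sites were found. It lies just before a place at 454 bp where interval ends recurred, described below. Whether the gap follows where intervals could lie was not tested.

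Beyond the gap the galactose counts were again 42 at 451 to 500 bp, 50 at 501 to 550 bp and 39 at 551 to 600 bp. They then thinned out towards the 35S gene, with 28 at 601 to 650 bp, 31 at 651 to 700 bp, 12 at 701 to 750 bp, 12 at 751 to 800 bp and 8 at 801 to 850 bp. No site lay beyond 850 bp.

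The dextrose counts were highest farther from the 5S gene. The bins at 451 to 500 bp and 551 to 600 bp had 15 sites each, those at 301 to 350 bp and 351 to 400 bp had 14 each, and those at 251 to 300 bp and 501 to 550 bp had 6 each. Every bin within the first 250 bp had between 1 and 5 sites. At 401 to 450 bp, the place of the galactose gap, there were 4 sites, as many as at 101 to 150 bp and at 151 to 200 bp. From 601 to 750 bp each bin had 5 sites, and beyond 750 bp there were 0.

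By these counts the sites of the 1 galactose library lay nearer to the 5S gene than those of the 1 dextrose library. The first 250 bp held 170 of the 538 galactose sites, 31.6% (exact 95% interval 27.7 to 35.7), and 19 of the 108 dextrose sites, 17.6% (10.9 to 26.1). The difference was 14.0 percentage points (Newcombe 95% interval 4.92 to 21.3). The stretch from 251 to 600 bp held 51.5% in galactose and 68.5% in dextrose. The limit of 250 bp was chosen after seeing the counts, so the interval is not a test. Which end of an interval adjoins the insertion is not given, and these shares were counted by the 5′ end only. A position counts once, and galactose filled 54 of 100 positions at 151 to 200 bp, while dextrose filled 15 of 100 at 451 to 500 bp. How far filled positions change the profiles was not tested. Over the 18 bins of 50 bp from 1 to 900 bp the counts of the libraries had a Pearson r of 0.66 and a Spearman rho of 0.70. These values describe neighbouring bins of 1 spacer and are not a test.

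Sites lay on both strands in similar numbers. The plus strand, on which the 5S gene is read, held 278 galactose sites, 51.7% (exact 95% interval 47.4 to 55.97), and 63 dextrose sites, 58.3% (48.5 to 67.7). Both intervals include 50%. In the rest of the nuclear genome the plus strand held 49.9% of galactose sites and 49.4% of dextrose sites. The strand is that of the deposited interval, and the orientation of the inserted element was not inferred.

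Locally the strands were uneven. At 401 to 450 bp the galactose library had 2 sites on the plus strand and 9 on the minus strand, and the dextrose library 0 and 4. At 451 to 500 bp the plus strand held more, with 34 plus and 8 minus sites in galactose and 10 and 5 in dextrose. At 551 to 600 bp galactose had 11 plus and 28 minus sites, and dextrose 9 and 6. From 751 to 850 bp all 20 galactose sites were on the minus strand. Plus-strand intervals run away from the 5S gene, and no galactose interval of the spacer reached beyond 840 bp. Intervals also began and ended at fixed places, described below. The local strand counts may follow where intervals could lie, which was not tested, and they are not read as the orientation of insertions.

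**Figure D2:**
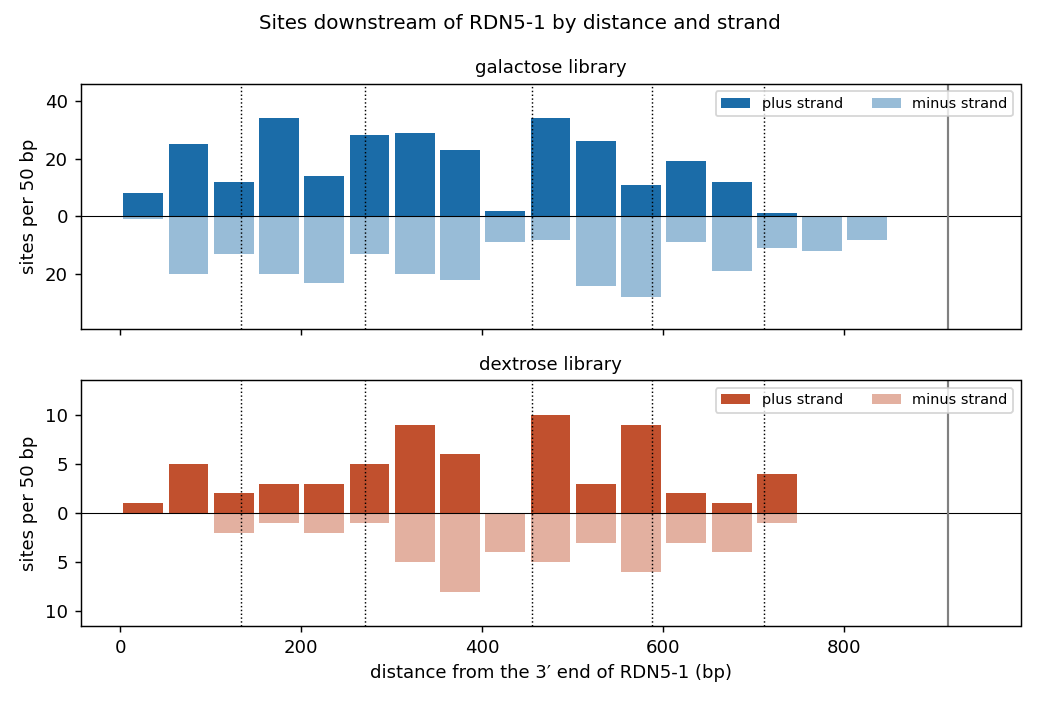
Sites per 50 bp by distance from the 3′ end of RDN5-1 (bp), plus strand upward and minus strand downward, with galactose above and dextrose below on separate scales; dotted lines mark 5 recurring end pairs and the grey line the start of RDN37-2. Galactose peaks at 151 to 200 bp with 54 sites, and dextrose at 451 to 500 bp and at 551 to 600 bp with 15 sites each. At 401 to 450 bp, just before the pair at 454 bp, galactose has 11 sites and dextrose 4.

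The ends of the intervals recurred at fixed places. When all 5′ and 3′ ends of both libraries were counted per base, 5 pairs of positions 3 bases apart had at least 20 ends at each position. They lay at 459928 and 459931, 460065 and 460068, 460250 and 460253, 460382 and 460385, and 460506 and 460509, which is 132, 269, 454, 586 and 710 bp from the 5S gene for the first position of each. Neighbouring pairs were 124 to 185 bp apart. The whole nuclear genome had 48 such pairs by the same count, so 5 of the 48 lay in these 915 bp. The definition was chosen after seeing the data, and it favours places with many intervals.

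**Figure D3:**
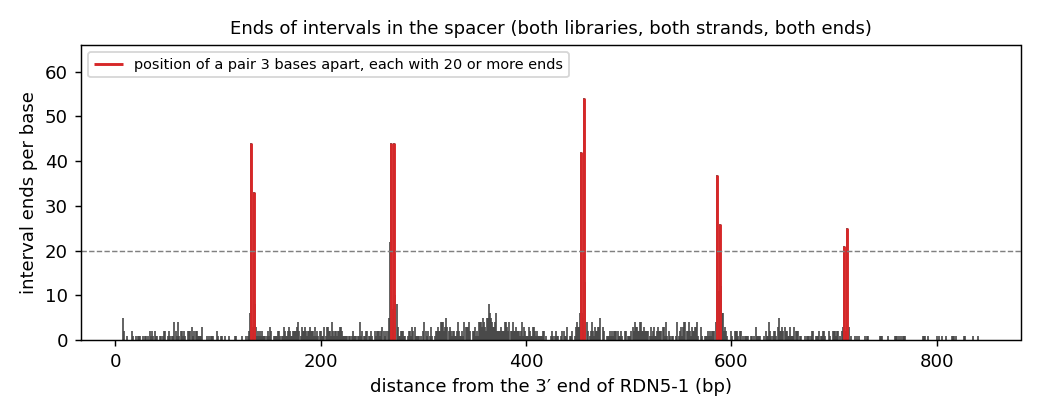
Number of interval ends at each base of the spacer, both libraries, strands and ends together, by distance from the 3′ end of RDN5-1 (bp); the dashed line marks 20 ends and red marks the positions of 5 pairs. The pairs hold 21 to 54 ends per position.

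Most intervals shorter than a full read touched one of these places. Counting ends within 1 base of a pair, 443 of the 687 galactose intervals of the spacer, 64.5% (exact 95% interval 60.8 to 68.1), began or ended at a pair, and 56 of the 108 dextrose intervals, 51.9% (42.0 to 61.6). The pairs were chosen from these same ends, so the shares describe the intervals and test nothing. Among intervals of 50 to 95 bases the shares were 89.1% in galactose and 79.6% in dextrose. Among full-length intervals of 96 or more bases they were 20% in both. Intervals that ran across a pair were rare, 26 of 687 in galactose and 2 of 108 in dextrose.

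The intervals touched the pairs in both senses. In galactose 258 intervals ended at a pair and 185 began at one, and in dextrose 35 ended and 21 began at one. Of the galactose intervals that began exactly on a pair, those on the plus strand began at its first position in 51 cases and at its second in 6, and those on the minus strand at its first in 6 cases and at its second in 70. Dextrose had 2 and 2 on the plus strand and 2 and 3 on the minus strand. Per the labels' protocols the DNA was cut with MseI, whose recognition sequence is TTAA, before the adaptor was joined. Whether the pairs are MseI sites was not tested.

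The 5 positions with the most intervals in galactose lay at pairs, which were themselves chosen for their many ends. In galactose the minus strand at 460253 had 33 intervals, with lengths between 51 and 96 bases. The plus strand at 460065 had 22 intervals, and the plus strand at 460250 had 15. Next came the minus strand at 460385 with 13 and the plus strand at 459928 with 12. With duplicates removed, the intervals at 1 such position differ in length.

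Repeated positions were otherwise uncommon in the spacer. There were 1.28 intervals per site in galactose, against 1.12 in the rest of the nuclear genome. Only 24 of the 538 galactose sites had 2 or more intervals, 4.46% (exact 95% interval 2.88 to 6.57), against 7.80% in the rest of the genome. Of those 24 sites, 17 were at a pair, and these 17 held 156 of the 173 intervals involved. In dextrose every spacer site had 1 interval, against a mean of 1.03 in the rest of the genome. The file names state that duplicates were removed, so repeated intervals of 1 length at 1 position may have been lost.

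Which end of an interval adjoins the inserted element is not given in the sources used here, and the counts were therefore also made with the other end. When the 156 galactose and 16 dextrose intervals shorter than 96 bases that began at a pair were placed by their other end and on the other strand, the spacer had 616 galactose and 105 dextrose sites. The plus strand then held 52.3% of the galactose sites (exact 95% interval 48.2 to 56.3) and 54.3% of the dextrose sites (44.3 to 64.04).

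Interval lengths in the spacer differed from those elsewhere, and in opposite directions in the libraries. In galactose 36.4% of the spacer intervals were of 96 or more bases (exact 95% interval 32.8 to 40.1), against 43.8% (43.5 to 44.02) in the rest of the nuclear genome. In dextrose 46.3% were (36.7 to 56.2), against 25.04% (24.2 to 25.8) in the rest. Intervals of 50 to 95 bases made up 57.5% in the galactose spacer against 48.8% elsewhere, and 45.4% in the dextrose spacer against 71.2% elsewhere. The dextrose intervals elsewhere include the frequent lengths given next, which belong to the class of 50 to 95 bases. The dextrose contrast depends on these lengths and was not computed without them.

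A few lengths stood out in dextrose over the genome, and less so in the spacer. Intervals of 54 to 56 or 78 to 80 bases made up 44.5% of the dextrose intervals outside the rDNA and 11.1% of those in the spacer (exact 95% interval 5.87 to 18.6). In galactose they made up 8.88% of the spacer intervals and 8.50% of the others. Mapping quality was at its maximum almost throughout, with a score of 60 for 98.8% of its galactose intervals against 97.9% elsewhere, and for 97.2% of its dextrose intervals (92.1 to 99.4) against 95.6% elsewhere.

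**Figure D4:**
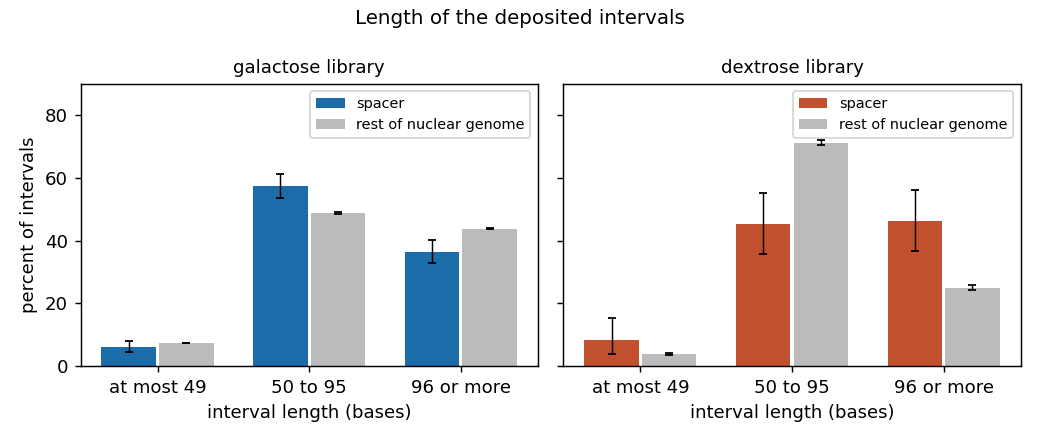
Percent of intervals of at most 49, 50 to 95 and 96 or more bases in the spacer and in the rest of the nuclear genome, galactose left and dextrose right; bars start at 0 and error bars are exact 95% intervals. Full-length intervals are 36.4% of the galactose spacer against 43.8% elsewhere, and 46.3% of the dextrose spacer against 25.04% elsewhere.

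The spacer took a smaller share of the sites in galactose than in dextrose. It held 0.354% of the galactose sites (exact 95% interval 0.324 to 0.385) and 0.964% of the dextrose sites (0.791 to 1.16), a difference of -0.610 percentage points (Newcombe 95% interval -0.810 to -0.442). The galactose library had 13.6 times the sites of the dextrose library over the nuclear genome and 4.98 times in the spacer. Lengths of 54 to 56 or 78 to 80 bases made up 44.5% of dextrose and 8.50% of galactose intervals outside the rDNA. The dextrose share and the ratio of 13.6 therefore depend on them. In the 15 bins of 50 bp with dextrose sites the ratio of galactose to dextrose sites ranged from 2.4 to 13.5. The other 2 bins with galactose sites had 12 galactose and 0 dextrose sites at 751 to 800 bp, and 8 galactose and 0 dextrose sites at 801 to 850 bp.

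The direction was the same in each class of interval length. Among full-length intervals the spacer held 0.335% of galactose sites (exact 95% interval 0.295 to 0.379) and 1.72% of dextrose sites (1.28 to 2.26), a 5.12-fold higher share in dextrose. Among those of 50 to 95 bases the shares were 0.39% in galactose and 0.621% in dextrose. The difference of -0.231 points had a Newcombe 95% interval of -0.435 to -0.0723. This class holds the lengths of 54 to 56 and 78 to 80 bases. In dextrose those made up 44.5% of intervals outside the rDNA and 11.1% in the spacer, so the dextrose share of this class depends on them. Among intervals of at most 49 bases the shares were 0.326% in galactose and 2.09% in dextrose, the last resting on 9 sites. Among positions with at least 2 intervals the whole stretch held 0.228% in galactose and 0% in dextrose, which had 0 such positions there and 317 in the rest of the nuclear genome. That difference had a Newcombe 95% interval of -0.972 to 0.331 percentage points and gives no direction.

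The counts per position bear on that difference. A position counts once however many cells carried an insertion there, and the spacer offers 1830 positions over its strands. Galactose sites filled 29.4% of them and dextrose sites 5.90%. In the highest bin of galactose, at 151 to 200 bp, galactose filled 54 of 100 positions and dextrose 4. At 451 to 500 bp, where dextrose had 1 of its 2 highest bins, galactose filled 42 and dextrose 15. There were 600 positions from which a full-length interval would fit without crossing a pair, and galactose had a full-length site at 37.8% of these and dextrose at 8.17%. When sites of 1 strand within 5 bp were merged, the spacer had 41 merged sites in galactose and 51 in dextrose, which is 13.1 sites and 2.12 sites per merged site, against 1.81 and 1.07 over the nuclear genome. How much of the difference in share comes from filled positions was not tested.

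Most dextrose positions were also galactose positions. Of the 108 dextrose sites in the spacer, 96 were present in galactose at the same base and strand, 88.9% (exact 95% interval 81.4 to 94.1). Within 5 bp on the same strand 102 had a galactose site, but galactose filled 29.4% of the spacer's positions. A galactose site within 5 bp is then likely at most places, so that count carries little information. In the rest of the nuclear genome 56.8% of the dextrose sites were shared, and in the 500 bp upstream of tRNA genes 92.8%. Sharing can rise with the share of positions that galactose filled, and the dextrose sites outside the rDNA include the frequent lengths. Neither was adjusted for, so the 88.9% is not read as a property of the spacer. The 96 shared sites were 17.8% of the galactose sites in the spacer. The read names of both files carry the same run and lane, and whether reads passed from one library to the other was not tested.

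Against the genome the spacer was dense in both libraries. It had 588 galactose sites per kb, 46.6 times the nuclear mean of 12.6, and 118 dextrose sites per kb, 127 times the nuclear mean of 0.929. The dextrose mean includes the frequent lengths of 54 to 56 and 78 to 80 bases, 44.5% of its intervals outside the rDNA, so the 127 depends on them. The stretch as a whole, 0.323% of the genome in length, held 0.368% of sites in galactose and 0.973% in dextrose, with most of its length empty. These ratios can include all copies of the array, whose number was not measured.

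In fixed windows of 1 kb, 3.34% of the 12077 nuclear windows had at least 5 times the mean in galactose and 2.14% in dextrose. The window from 460001 to 461000 had 401 galactose sites, the 15th highest count of all windows, and 94 dextrose sites, the highest of all. The window from 459001 to 460000 had 143 galactose sites, 11.4 times the mean, and 15 dextrose sites, 16.2 times the mean. The other windows that lie inside the stretch had at most 8 galactose sites and 0 dextrose sites.

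A dextrose share of at least 2 times the galactose share was found in 15.7% of the 2806 windows with at least 10 galactose sites. As the galactose library had 13.6 times the sites, very few dextrose sites reach this ratio in windows with few galactose sites. Among the 403 windows with at least 5 times the galactose mean such a share was found in 0.744%, or 3 windows. One was the spacer window from 460001 to 461000, with a ratio of 3.18. The others, named after their values were seen, were the window at PTR3 (chromosome VI, 211001 to 212000), with 80 galactose and 12 dextrose sites and a ratio of 2.04, and the window at the tRNA gene YNCP0001C (chromosome XVI, 56001 to 57000), with 138 galactose and 23 dextrose sites and a ratio of 2.26. In the window from 459001 to 460000 the ratio was 1.42.

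The 2 comparison genes of RNA polymerase III had more sites upstream than downstream in both libraries, at SCR1 in dextrose by less than the counting error. SCR1 (chromosome V, 441987 to 442508) encodes the RNA part of the signal recognition particle and had 281 galactose and 15 dextrose sites in the 500 bp upstream and 192 and 13 in the 500 bp downstream. SNR6 (chromosome XII, 366235 to 366346) encodes the spliceosome's U6 RNA and had 228 and 14 upstream and 42 and 0 downstream. RDN5-1 had 0 and 0 upstream and 358 galactose sites (95% interval 322 to 397) and 72 dextrose sites (95% interval 56.3 to 90.7) downstream. As its upstream spacer occurs as 2 annotated copies of equal length, the 0 counts do not show that insertions are absent there.

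Among the 275 nuclear tRNA genes the 500 bp downstream held a median of 26 galactose sites (range 0 to 285) and 0 dextrose sites (range 0 to 20). No tRNA gene had as many downstream sites as RDN5-1 in either library. Upstream the tRNA genes had a median of 145 galactose sites (range 0 to 364) and 6 dextrose sites (range 0 to 29). The downstream count of RDN5-1 was reached upstream by 2 tRNA genes in galactose and by none in dextrose. Each tRNA gene is 1 place in the genome, while RDN5-1 can stand for every copy of the array, so these counts are set side by side as numbers of sites only.

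The balance between the libraries differed as well. The share of sites in the 500 bp downstream was 2.73 times as high in dextrose as in galactose at RDN5-1. It was 0.919 times as high at SCR1 and 0.376 times over the downstream windows of all tRNA genes, which held 6.34% of galactose sites and 2.38% of dextrose sites. On the upstream side it was 0.725 times at SCR1, 0.833 times at SNR6 and 0.640 times over the tRNA genes.

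**Figure D5:**
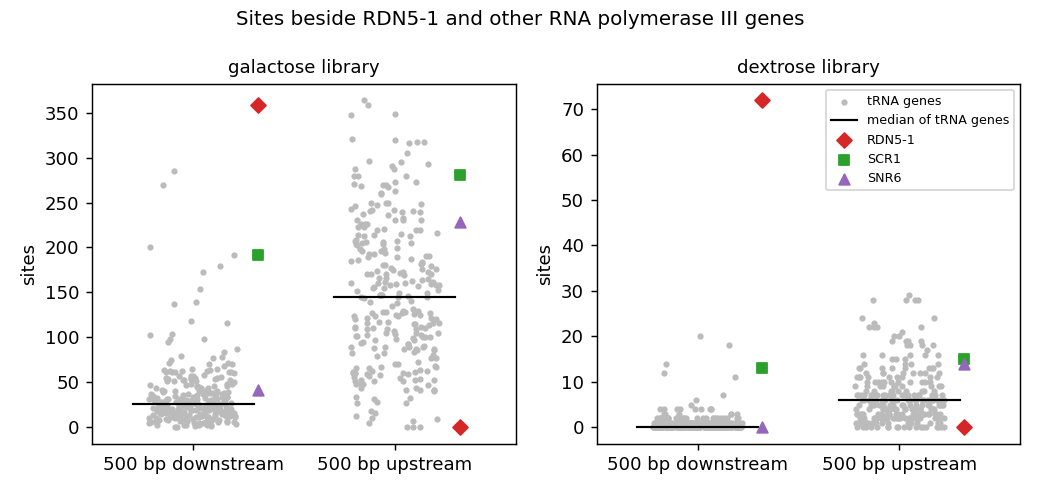
Sites in the 500 bp downstream and upstream of 275 tRNA genes (grey points, median as a line), RDN5-1, SCR1 and SNR6, galactose left and dextrose right, on separate scales. RDN5-1 has 358 galactose and 72 dextrose sites downstream, above every tRNA gene, and 0 upstream.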

How the data were processed

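Ty1 insertion profiling was analysed in 1 galactose and 1 dextrose library. Per the labels' protocols, the DNA was cut by MseI, joined to an adaptor, cut by BglII, amplified from a site named SSB and selected between 200 and 1000 bp. The submitters' processing notes name the R64 (sacCer3) build and Picard 3.4.0, bedtools 2.31.1, SAMtools 1.22, BWA 0.7.19 and Trimmomatic 0.39, with settings not given in the sources used here. The authors deposited aligned intervals with a mapping quality score (30 to 60) and no normalization, 170698 in galactose and 11577 in dextrose, and the file names state that duplicates were removed. Sites were counted on the 16 nuclear chromosomes with Python 3.11.15, pandas 2.3.3 and scipy 1.17.1. Genes came from a RefSeq table of R64, with the strand read from the systematic name. Coordinates are 1-based. Exact Clopper-Pearson, exact Poisson and Newcombe 95% intervals were computed, and counting was tested on simulated data. All annotated genes of the stretch, the 5 highest bins and the 5 highest positions per library, SCR1 and SNR6 were to be named; in dextrose no position exceeded 1 interval, so none is singled out. Alternatives varied the reads per site, merging, the end used, interval length, mapping quality, bounds, bins and windows. No genome sequence was used here. The members and lists were chosen with earlier results of these data known.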

Additional observations from a re-analysis of the deposited data

How the results depend on the processing

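No paired analysis was possible because each medium had 1 library, and for the same reason no library could be left out. Of 100 alternative values for 14 results, 57 stayed within the error of the value given or within 1.5 times of a count, 42 moved and 1 turned round. The one whose sign turned was the galactose minus dextrose share of the stretch, 0.228 percentage points among sites with at least 2 reads, against -0.604 as given. Its 95% interval of -0.972 to 0.331 includes 0, and dextrose had 0 such sites there, so it gives no direction. With sites merged within 5 bp the difference was -0.430, with shares of 0.0665% in galactose and 0.496% in dextrose. Merging joins 13.1 spacer sites into 1 in galactose and 2.12 in dextrose, which lowers both shares by construction, the galactose share by the larger factor. The difference was -1.40 with intervals of 96 or more bases, -0.216 with 50 to 95 and -1.754 with at most 49.

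The galactose share of the stretch, 0.368% as given, was 0.228% with at least 2 reads, 0.0665% with merging, 0.323% by the 3′ end, 0.418% in reads, 0.405% with 50 to 95 bases, 0.3341% with at most 49 and 0.333% without the highest bin. The dextrose share, 0.973% as given, was 0% with at least 2 reads, 0.496% with merging, and 1.75%, 0.621% and 2.09% with 96 or more, 50 to 95 and at most 49 bases. Classes of length and a minimum of reads leave fewer sites by construction. In the spacer they gave 24 galactose and 0 dextrose sites with at least 2 reads, 250 and 50 with 96 or more bases, 260 and 49 with 50 to 95, and 41 and 9 with at most 49. Merging gave 41 and 51.

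Upstream of the 5S genes the 2 galactose sites became 0 with at least 2 reads, with at most 49 bases and at a mapping quality of 60, and 1 each with 96 or more and 50 to 95 bases. The plus-strand share in galactose was 36.6% with merging and 46.3% with at most 49 bases, and 44.4% in dextrose with at most 49. The share of dextrose spacer positions found in galactose was 3.92% with merging, which gives each merged group the position of its first site. Without merging 94.4% had a galactose site within 5 bp on the same strand, which says little, as galactose filled 29.4% of the positions. The share found at the same position was 76.3% by the 3′ end, and 96%, 77.6% and 33.3% with 96 or more, 50 to 95 and at most 49 bases. In bins of 25 bp the highest dextrose bin stood at 28 sites per 50 bp. At 10 times the mean, 245 galactose and 107 dextrose windows passed, against 403 and 258 at 5 times. PCR reads that carry no molecular identifiers are not independent molecules, which no interval given covers, and the 108 dextrose sites limit any statement on their profile.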
